A study of Ovis aries with 32 samples.

Results

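Preadipocytes from growth-restricted fetal sheep were compared with preadipocytes from control fetuses, 8 libraries against 8, with sex as a covariate. The 16 libraries, of 32 in the series, are those of male control (MC), female control (FC), male growth-restricted (MFGR) and female growth-restricted (FFGR) perirenal preadipocytes, 4 each, and the other 16 are of the corresponding differentiated cells (MCD, FCD, MFGRD and FFGRD). They were chosen by the sex, treatment and cell type in their labels, not by any measured value, though with earlier results of these data known. Fetal growth restriction (FGR) was produced by keeping crossbred Columbia-Rambouillet ewes with singleton pregnancies at raised ambient temperature in early to mid-gestation, which makes the placenta insufficient, and the control ewes were kept at a normal temperature and pair-fed to the heated ewes. The fetuses were taken near term. The heated ewes thus differ from the controls in heat as well as in placental function, and these cannot be told apart here. The labels describe RNA extracted from adipose tissue and the methods describe thawed cell pellets, and neither says whether the 4 libraries of a group come from 4 fetuses, so the p-values below measure the spread between libraries.

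Preadipocytes are the fibroblast-like precursors of fat cells. They make much extracellular matrix, and on a hormonal signal they switch on the transcription factors PPARG and CEBPA, which in turn switch on the genes of lipid uptake and storage. Perirenal fat is the main fat depot of the fetal lamb, is laid down late in gestation and is rich in brown fat, which the newborn uses to make heat. The comparison asks whether growth restriction in utero leaves a difference in the RNA of these precursor cells before they are differentiated.

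RNA-seq reads had been assigned to Ensembl transcripts of Oar_rambouillet_v1.0 and normalized by the authors, and the transcripts of each gene were summed. A gene was tested when its normalized value was 10 or more in 8 or more of the 16 libraries, which left 11550 of 21271 genes, and 9788 of these carry a name. The summed value per library ran from 11.8 to 21.2 M (M, mega), from approximately 8.79 to 21.2 M reads, and a value of 10 stands for 6.94 to 14.3 reads. Between 13092 and 14626 genes were above 0 in a library. Pairs of libraries correlated at 0.676 to 0.973 on the log2 scale, and no pair of libraries shared identical values.

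In 4 libraries the values stood apart from those of the other 12. They are MFGR replicate 1, FC replicate 2 and FFGR replicates 2 and 3, so 3 of them are growth restricted and 1 is a control. In each library the slope of log2(value + 1) on the log10 genomic span of the genes was taken, and it is called the span slope. The span slope was -0.48 in FFGR replicate 2, -0.29 in FC replicate 2, -0.24 in MFGR replicate 1 and -0.06 in FFGR replicate 3, and it lay between 0.39 and 0.82 in the other 12. In these 4 libraries, long genes had low values and short genes had high values relative to the rest. The first principal component held 57.8% of the variance and followed the span slope, with Pearson's r = -0.99 and Spearman's rho = -0.89 over the 16 libraries, given as a description since both are computed from the same values. The mean span slope was 0.57 ± 0.37 (SD) in the controls and 0.35 ± 0.53 in the FGR libraries, a difference of -0.21 (two-sided exact permutation test within sex, 4900 permutations, p = 0.404, adjusted p = 0.641 over 5 properties of the libraries). The groups also did not separate on the first component (p = 0.362), the second component (p = 0.789), the sum of the values (p = 0.469) or the number of genes above 0 (p = 0.513) in the same exact permutation test. The median log2 difference between FGR and control cells was 0.16 in the tertile of genes with the shortest span, -0.02 in the middle tertile and -0.24 in the longest. With the span slope as a second covariate all 3 medians were near 0, between -0.0052 and -0.0011. The slope comes from the same values, so this covariate removes a linear trend of the differences on span by construction. The flat medians are therefore no separate evidence. Values with this covariate or without the 4 libraries stand below beside many of the differences, and a difference given without them may move too.

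**Figure D1:**
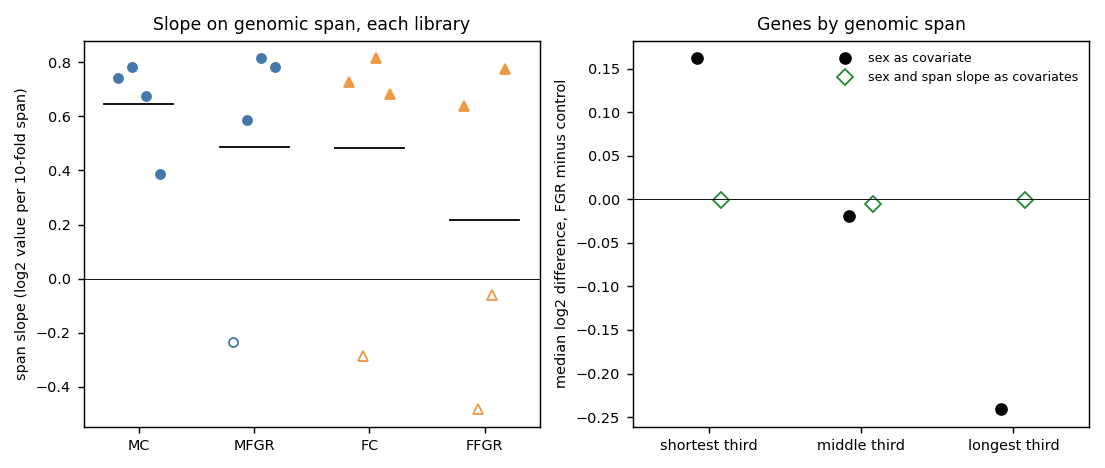
The left plot shows the span slope (log2 value per 10-fold genomic span) of each preadipocyte library by group, with a line at the group mean and open symbols for the 4 libraries with a slope below 0. The right plot shows the median log2 difference, FGR minus control, in tertiles of the genes by genomic span, at 0.16, -0.02 and -0.24 with sex as the covariate and near 0 with the span slope added. The added covariate removes a linear trend on span by construction.

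No gene was called between growth-restricted and control preadipocytes. Of 11550 genes 0 (0%) had a Benjamini-Hochberg adjusted p below 0.05 and a fold change above 1.5 in limma, and the smallest adjusted p was 0.805. At an unadjusted p below 0.05 there were 306 genes (2.65%), of which 199 (1.72%) were higher and 107 (0.926%) lower in FGR cells. This number was 741 without FC replicate 2, 582 without FFGR replicate 4, 552 without MFGR replicate 3 and 541 without FFGR replicate 1, and it was 157 without FC replicate 3, 190 without FFGR replicate 3, 193 without MC replicate 1 and 202 without MC replicate 3, with 0 calls in each. The median log2 difference over all genes was -0.03, with quartiles of -0.33 and 0.23. There were 0 genes (0%) with all 8 FGR libraries above all 8 controls, and 0 (0%) with all 8 below. In the same limma fit the comparison of male with female cells likewise gave 0 calls (0%), with 491 genes (4.25%) at an unadjusted p below 0.05. Control preadipocytes against control differentiated cells, also 8 libraries against 8, gave 1680 calls among 11518 genes (14.6%), 697 higher and 983 lower after differentiation. That fit takes the libraries as independent, although those of both stages may come from the same fetuses. On single transcripts there were 0 calls among 15660 (0%), with 455 (2.91%) at an unadjusted p below 0.05.

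**Figure D2:**
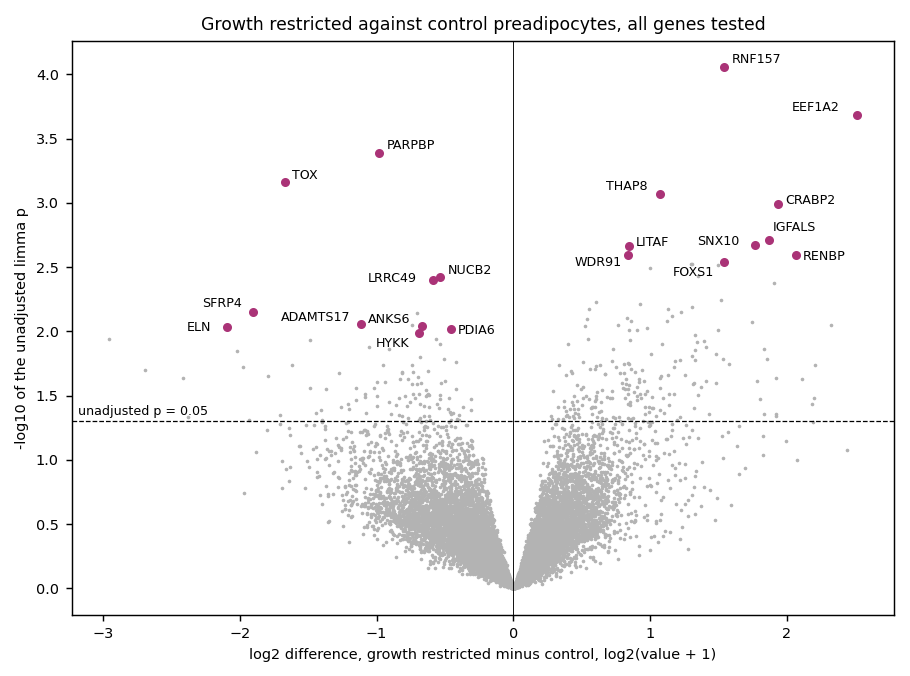
Each point is 1 of the 11550 genes, with the log2 difference (FGR minus control) on the x axis and -log10 of the unadjusted limma p on the y axis, and the 10 higher and 10 lower named genes with the smallest p are labelled. None reached an adjusted p below 0.05, and the genes above the dashed line at an unadjusted p of 0.05 number 306.

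The spread between libraries sets how large a difference this comparison could have shown. The half-width of the 95% interval of the log2 difference was 0.71 for the median gene, and the interval lay wholly within a 2-fold change either way for 5755 genes (49.8%) and within 1.5-fold for 2080 (18%). A gene with the median standard error (0.33) would need a log2 difference of 2.28 (4.85-fold) to be called if it were the only call. For the tertile of genes with the lowest values this was 2.78, and for that with the highest it was 2.04. The size needed falls or rises with a gene's own standard error, so a smaller difference could be called in a gene that varied less. For a gene that was not called, the interval still bounds how large its difference may be.

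The 10 genes with a name that had the smallest unadjusted p among those higher in FGR cells are described first, and none of them passed the adjusted threshold. In the fit of 8 against 8 libraries every gene had an adjusted p of 0.805 or above in limma, and below each interval is the 95% interval of its log2 difference. RNF157, which encodes an E3 ubiquitin ligase (ENSOARG00020012903 on chromosome 11 from 7727295 to 7804427), had a lowest, median and highest normalized value of 8.17, 14.3 and 35.8 in the 8 control libraries and 23.5, 49.6 and 102 in the 8 FGR libraries. Its log2 difference was 1.54 (95% interval 0.92 to 2.17, limma, adjusted p = 0.805), and the groups overlapped although 8 of 8 FGR libraries lay above the control median. The difference was 1.58 in males and 1.51 in females, 1.52 with the span slope as covariate and 1.46 without the 4 libraries. With array weights in limma, which count variable libraries less, its adjusted p was 0.0657.

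EEF1A2, a translation elongation factor best known from muscle and nerve cells (ENSOARG00020003758 on chromosome 13 from 56453555 to 56461060), had values of 1.02, 8.26 and 17.8 in controls and 15.99, 47.8 and 72.7 in FGR cells. At 2.51 (interval 1.40 to 3.62) its log2 difference was the largest of these 10, and the values of FC replicates 1 and 2 were the only control values above the lowest FGR value. The control values are low, and a close paralogue, EEF1A1, could share reads with it. Its difference was 2.32 with the span slope and 2.40 without the 4 libraries. CRABP2, a carrier of retinoic acid in the cytoplasm, had values of 59.8, 148 and 559 in controls and 222, 707 and 1331 in FGR cells, a log2 difference of 1.93 (interval 0.91 to 2.95). In males its 4 control values were 59.8, 196, 65.2 and 91.02 and its 4 FGR values 995, 533, 454 and 958, which do not overlap, whereas the female values overlapped. Its difference was 1.74 with the span slope and 1.77 without the 4 libraries.

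IGFALS, the acid-labile subunit that holds insulin-like growth factors in a large complex in plasma, had values of 1.22, 17.5 and 79.7 in controls and 16.2, 52.3 and 264 in FGR cells (log2 difference 1.87, interval 0.80 to 2.94). RENBP, an enzyme of amino sugar metabolism that also binds renin, had values of 24.2, 48.00 and 253 and 74.96, 286 and 848 (log2 difference 2.06, interval 0.84 to 3.29). Both differences were smaller in the fits that allow for the 4 libraries, at 1.66 and 1.597 with the span slope and 1.46 and 1.59 without the libraries. The other 5 are SNX10, a sorting nexin of endosomes (1.77), FOXS1, a forkhead transcription factor (1.54), THAP8 (1.07), LITAF, a protein of late endosomes and lysosomes (0.84), and WDR91, which acts in the maturation of endosomes (0.84), each given as its log2 difference. In each of the 5 the control and FGR values overlapped. Without the 4 libraries SNX10 differed by 1.66, FOXS1 by 1.30, THAP8 by 0.98, LITAF by 0.99 and WDR91 by 0.70.

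Among the genes lower in FGR cells, PARPBP, which binds PARP1 and restrains repair by homologous recombination (ENSOARG00020009495 on chromosome 3 from 183646987 to 183707470), had the smallest p. Its values were 205, 366 and 479.8 in controls and 79.5, 153 and 383 in FGR cells, a log2 difference of -0.98 (interval -1.45 to -0.51, adjusted p = 0.805). All 4 FFGR libraries, at 139, 79.5, 114 and 124, lay below all 8 controls, as did MFGR replicate 1, and the other 3 MFGR libraries lay within the control range. TOX, a nuclear protein with an HMG box known from T cell development (ENSOARG00020025664 on chromosome 9 from 40681014 to 40988164), had values of 22.99, 70.5 and 134 and 5.59, 19.3 and 38.1, a log2 difference of -1.67 (interval -2.51 to -0.83). It differed by -1.67 in males and -1.67 in females. Without the 4 libraries the difference of TOX was -1.44 and that of PARPBP was -0.75.

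Of the 10, SFRP4, ELN and ADAMTS17 encode secreted proteins of the matrix or of Wnt signalling. SFRP4, a secreted antagonist of Wnt ligands, had values of 654, 1277 and 4643 in controls and 19.8, 598 and 4433 in FGR cells (log2 difference -1.91, interval -3.21 to -0.60). The female values were 654, 936, 1249.8 and 1239.5 in FC and 558, 174, 19.8 and 105 in FFGR, with no overlap, and the male values overlapped. ELN, which encodes the elastin of elastic fibres, had values of 166, 398 and 867 and 9.78, 84.4 and 601 (log2 difference -2.09, interval -3.60 to -0.59), and its lowest 2 values were those of FFGR replicates 2 and 3. Without the 4 libraries the difference of ELN was -1.34 and that of SFRP4 was -1.22. ADAMTS17, a secreted metalloprotease, differed by -1.12 (interval -1.91 to -0.32).

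The remaining 5 had smaller differences. NUCB2, the precursor of nesfatin-1, differed by -0.54 with values of 2189, 2535 and 3374 in controls and 1217, 1808 and 2528 in FGR cells, and PDIA6, a disulphide isomerase that folds proteins in the endoplasmic reticulum, by -0.46 with values of 5771, 6377 and 10158 and 3859.7, 4353 and 6638. LRRC49 differed by -0.59, ANKS6, a protein of the primary cilium, by -0.67, and HYKK, the kinase of hydroxylysine, by -0.69 on the log2 scale. Their interval lay within a 2-fold change either way for NUCB2, LRRC49 and PDIA6. All 20 genes had the same sign in males and in females, which choosing them by the pooled p favours. Over the 27 or 28 alternatives that gave a value, each of the 20 kept its direction.

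**Figure D3:**
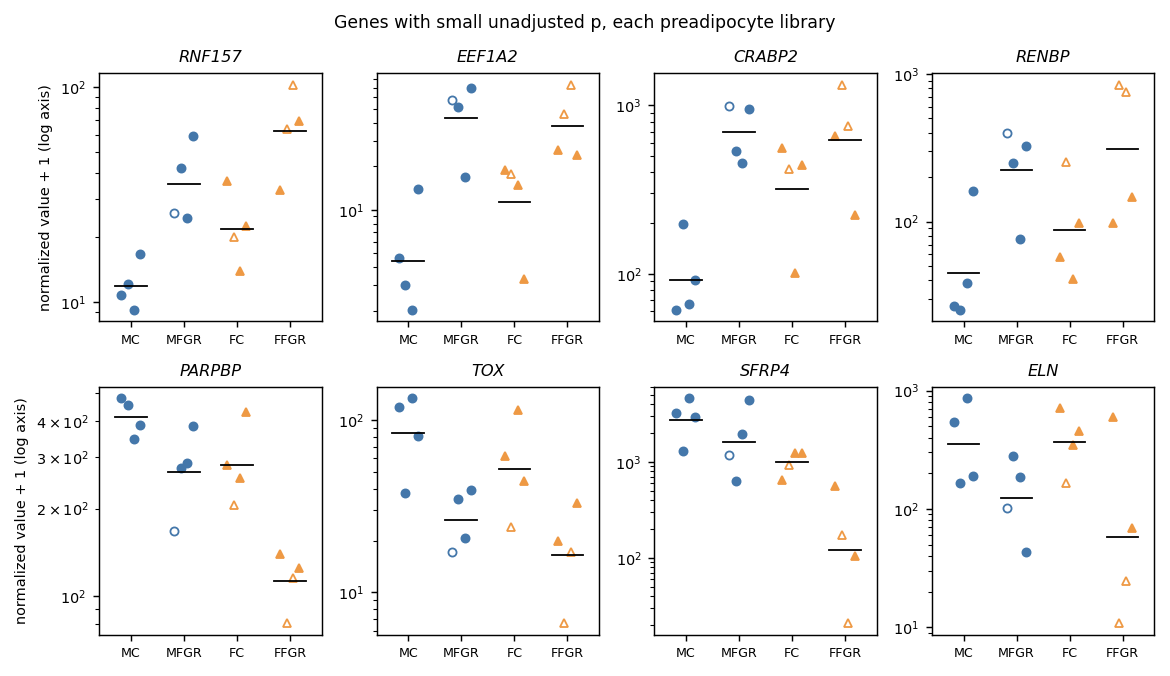
Each panel shows 1 gene in the 16 preadipocyte libraries as normalized value + 1 on a log axis, with circles for males, triangles for females, open symbols for the 4 libraries with a span slope below 0 and a line at the group mean of the log values. The FGR group means lie above the control mean of their sex in the upper row (RNF157, EEF1A2, CRABP2, RENBP) and below it in the lower row (PARPBP, TOX, SFRP4, ELN), and in no panel are all 8 FGR libraries apart from all 8 controls.

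The effect was also fitted within each sex and the difference between the sexes tested. In males (MFGR against MC) 0 genes (0%) were called, with 113 (0.978%) at an unadjusted p below 0.05 in limma, and in females (FFGR against FC) 0 (0%), with 128 (1.11%). The test of the sex difference gave 0 calls (0%), 40 genes (0.346%) at an unadjusted p below 0.05 and a smallest adjusted p of 1.00. Of the 4 genes with the smallest p in that test, PCDH10, a protocadherin of cell contacts, had values of 7.35, 9.16, 7.16 and 10.1 in MC, 13.3, 45.7, 34.8 and 28.6 in MFGR, 53.7, 48.4, 72.7 and 33.2 in FC and 4.24, 5.56, 10.3 and 105 in FFGR. The log2 difference of PCDH10 was 1.63 in males and -1.84 in females. GSDME, a pore-forming gasdermin, differed by 2.91 in males and -1.24 in females, EPB41L4B by -0.96 and 1.32, and CYP2D6 by 1.29 and -0.75. These 4 differences did not pass the adjusted threshold.

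Male and female effects come from separate libraries, and their correlation across genes is given as a description, since genes are not independent replicates. Over the 11550 genes r was 0.54 (Spearman's rho 0.62), and 75.6% of the genes had the same sign in both sexes. With the span slope as a covariate r was 0.25 with 56.9% of the same sign, and without the 4 libraries it was 0.06 over 11307 genes with 50.5% of the same sign. The likeness of the sexes across all genes was smaller in both of these fits. The covariate removes, by construction, a linear trend on span that the sexes share. Leaving out the 4 libraries leaves fewer per group, with FFGR replicates 1 and 4 alone in theirs, and this by itself lowers such a correlation. How much of the fall is due to the libraries that stand apart was not tested.

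Marker genes were read to check the label of the cells. Preadipocyte and stromal markers were abundant: 17 of the 19 in the table were tested, and their summed value had a lowest, median and highest of 807180, 990646 and 1407130 in controls and 632696, 810191 and 1104940 in FGR cells. The sum was 217295 to 1005070 in the differentiated libraries. These ranges overlap, so the sum alone does not tell preadipocytes from differentiated cells. COL3A1 and LUM, both of the stromal matrix, were among the high ones, with control medians of 437986 and 23067. Markers of mature fat cells were low, with 8 of 15 tested and 6 under 10 in all 16 libraries, and their sum was 173, 342 and 481 in controls and 143, 752 and 2148 in FGR cells, against 456 to 189488 in the differentiated libraries. In these bulk libraries fewer cells of a type and less RNA per cell cannot be told apart.

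Most of the genes of fat cells that were tested had higher means in FGR preadipocytes, without any call. Of the 8 mature adipocyte markers tested 7 had a log2 difference above 0, where 47.7% of all genes did, and the median was 0.76, against -0.03 over all genes. ADIPOQ and FABP4 have control medians below the filter value of 10 and could pass it through their FGR libraries. This favours differences above 0, so the count of signs is no evidence of a shift. At an unadjusted p below 0.05 there were 3, all higher. LPL, the lipase that releases fatty acids from circulating triglyceride, had values of 5.72, 49.9 and 276 in controls and 22.2, 309 and 664 in FGR cells (log2 difference 1.92, interval 0.30 to 3.54). FABP4, the fatty acid carrier of fat cells, had values of 1.56, 9.90 and 24.4 and 4.65, 41.4 and 445 (log2 difference 1.83, interval 0.06 to 3.61), and its highest 2 values were those of FFGR replicate 3 and MFGR replicate 1. ADIPOQ, which encodes adiponectin, had values of 0, 6.92 and 23.2 and 4.24, 17.1 and 216 (log2 difference 1.78, interval 0.26 to 3.29), with the highest 2 in FFGR replicates 3 and 2. Those 3 libraries are among the 4 that stand apart, and with the span slope as a covariate the differences were 1.99, 1.27 and 1.36.

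PPARG, the main transcription factor of fat cell differentiation, had values of 10.99, 67.2 and 236 in controls and 14.8, 166 and 610.1 in FGR cells, a log2 difference of 1.21 whose interval (-0.29 to 2.72) holds 0. The difference of PPARG was 0.79 with the span slope and 0.58 without the 4 libraries. CEBPA, its partner, differed by -0.06 (-1.14 to 1.02). PLIN1, which coats lipid droplets, had values of 9.62, 23.7 and 28.7 and 18.1, 23.1 and 35.7, with an interval of -0.28 to 0.90. The list median was 0.63 with the span slope. Without the 4 libraries ADIPOQ, FABP4 and LIPE could not be tested, and the median of the other 5 markers was 0.34. That is the difference of PLIN1, which was 0.31 with all 16 libraries. It covers fewer genes than the median of 0.76 over all 8 markers and cannot be set against it. In the differentiated cells the same list had a median of 0.12. Of 21 genes that the study names for differentiation, a list chosen on these samples and so no independent evidence, 15 were tested, 9 were above 0, and beside FABP4 and ADIPOQ only LMO7, which links actin to cell junctions, had an unadjusted p below 0.05 (-0.89, interval -1.76 to -0.03). SPRED3, an inhibitor of the ERK pathway, differed by -0.61 (-1.71 to 0.50) and LRRFIP1 by -0.10 (-0.85 to 0.66). Without the 4 libraries LMO7 differed by -0.56, SPRED3 by -0.05 and LRRFIP1 by 0.003. ABCD2, DGAT2, KLB, PLIN4, THRSP and ZBTB16 of that list did not pass the filter on low values.

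**Figure D4:**
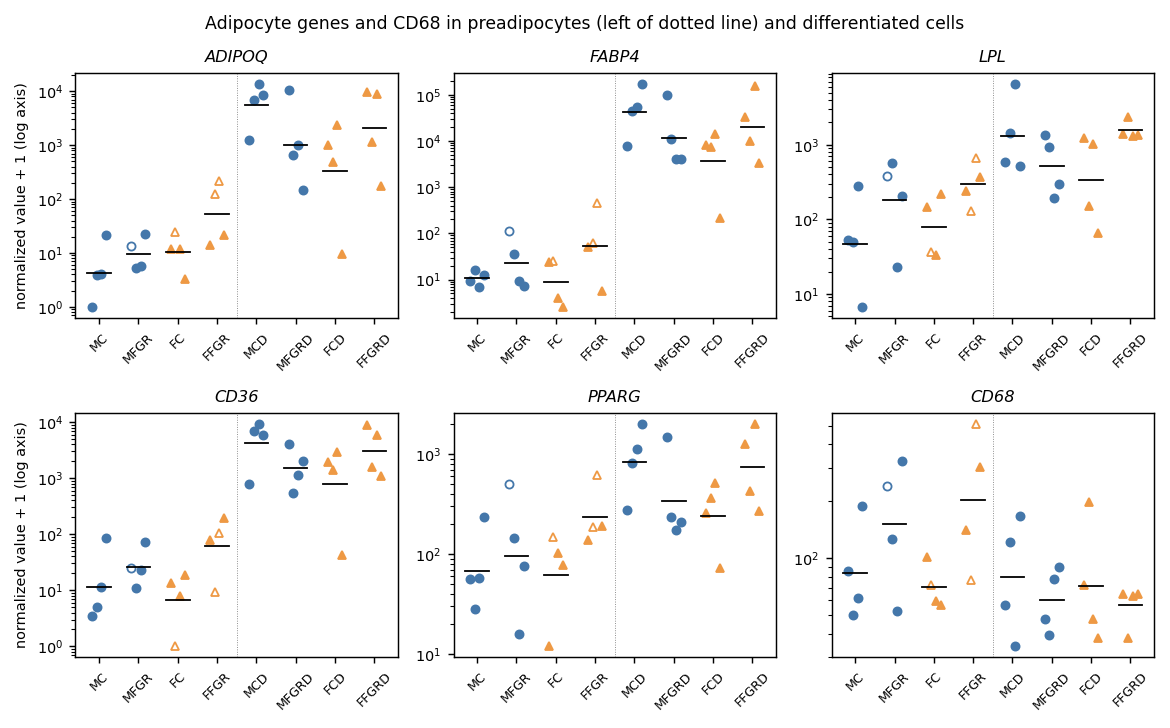
Normalized value + 1 on a log axis for 5 genes of fat cells and CD68 in the 16 preadipocyte libraries, left of the dotted line, and the 16 differentiated libraries, with symbols as in the plot of single genes by group. The median of ADIPOQ, FABP4 and CD36 was lower in the preadipocytes than after differentiation, and in the preadipocytes the FGR values overlapped those of the controls.

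Markers of other cell types were mostly at the floor. Endothelial markers summed to 13.99, 52.9 and 84.8 in controls and 19.4, 49.7 and 139.8 in FGR cells, with 1 of 10 tested and CLDN5 at 0 throughout. Skeletal muscle (sum 0 to 13.2), erythroid (0 to 12.5) and kidney or adrenal markers (3.22 to 98.9) gave no tested gene, and MYOD1, MYOG, PAX7, HBB, SLC4A1, UMOD, NPHS1 and CYP17A1 were listed at 0 in all 16 libraries. The sum of the macrophage and leukocyte markers was 91.3, 141 and 230.4 in controls and 108, 308 and 1144 in FGR cells, and 2 of 12 were tested. CD68, a lysosomal protein abundant in macrophages, had values of 49.2, 66.2 and 188 and 51.4, 190.2 and 513 (log2 difference 1.18, interval 0.24 to 2.12), whereas CD14 had 31.3, 40.9 and 86.8 and 22.4, 36.4 and 162 (-0.11). Smooth muscle and pericyte markers, which cultured stromal cells also express, summed to 10513, 22793 and 45785 and 10579.7, 22543 and 102263. KRT8, a keratin of epithelia, ranged from 0 to 1217, with the highest value in FC replicate 3, and its control and FGR values overlapped (0, 6.13 and 1217 against 1.08, 12.98 and 391). It was the only one tested of the mesothelial and epithelial markers, whose sum was 0 to 2191 in controls and 2.16 to 581 in FGR cells. Of the glial and neural markers S100B alone was tested (0.06), and the sum was 182 to 441 in controls and 203 to 790.3 in FGR cells. The part of other cell types in the results was not tested.

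The 27 pathway lists held 602 tested genes, of which 0 were called and 25 (4.15%) had an unadjusted p below 0.05, beside 2.65% of all genes. Of the 25, 14 were higher and 11 lower in FGR cells. In most lists the members lay on both sides of 0, and the lists whose members lay mostly on one side are taken in turn.

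Genes of the extracellular matrix were mostly lower. Of 18 collagens tested 14 lay below 0, with a median of -0.56, and 2 (COL8A2 and COL15A1) were higher and 2 (COL3A1 and COL1A2) lower at an unadjusted p below 0.05. COL3A1, the fibrillar collagen of loose connective tissue, had values of 171108, 437986 and 713676 in controls and 52021, 230658 and 451401 in FGR cells (log2 difference -1.09, interval -2.06 to -0.12). COL8A2, a short-chain collagen, had values of 79.1, 212 and 399 and 90.2, 714 and 1072 (log2 difference 1.35, interval 0.51 to 2.19), and 7 of 8 FGR libraries lay above the control median. COL1A2 (-0.82, interval -1.62 to -0.02) and COL15A1 (1.20, interval 0.01 to 2.38) are named after their values were seen. The collagens' median was -0.10 with the span slope and -0.09 without the 4 libraries, while COL8A2 was 1.47 and 1.23, so the list moved with these libraries and COL8A2 moved less. Leaving out 1 library moved the collagens' median to -0.85 without FC replicate 2, -0.36 without FC replicate 4 and -0.23 without FFGR replicate 2, and that of the matrix glycoproteins below to -0.21 without FFGR replicate 2. Of 25 matrix glycoproteins and cross-linkers 20 lay below 0 (median -0.35, with the span slope -0.11), and of these only ELN had an unadjusted p below 0.05. FN1, which encodes fibronectin, had values of 15568, 93512 and 517268 and 12695, 68545 and 337706, a span within each group that far exceeds the difference of -0.54. P4HA1, the prolyl hydroxylase that stabilises collagen, differed by -0.81 (interval -1.49 to -0.14) and by -0.51 without the 4 libraries.

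Genes of sterol and fatty acid metabolism lay mostly above 0. Of 22 genes of cholesterol synthesis and uptake 21 had a higher mean in FGR cells, with a median of 0.57 beside -0.03 over all genes, and 1, IDI1, had an unadjusted p below 0.05. The median was 0.54 with the span slope and 0.44 without the 4 libraries, and leaving out single libraries moved it between 0.40 and 0.89, the latter without FFGR replicate 1. It was 1.07 in males and 0.08 in females, and the difference between the sexes was not tested for the list. IDI1, an isomerase early in the sterol pathway, had values of 1108, 1709, 1376 and 1308 in MC, 3942, 4992, 1222 and 5291 in MFGR, 609, 2015, 884 and 1781 in FC and 837, 2012, 4127 and 1129.7 in FFGR (log2 difference 0.91, interval 0.08 to 1.73). Of the 4 MFGR libraries 3 lay above all 8 controls and MFGR replicate 3 did not. CYP51A1, the lanosterol demethylase, differed by 0.55 (-0.37 to 1.48).

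Of 26 genes of fatty acid synthesis, uptake and oxidation 17 lay above 0 (median 0.17), 2 were higher at an unadjusted p below 0.05 and 1 was lower. CD36, a transporter of fatty acids, had values of 0, 8.58 and 82.99 in controls and 8.38, 47.7 and 192 in FGR cells (log2 difference 2.21, interval 0.43 to 3.99), and it was 2.07 without the 4 libraries. FADS1, a desaturase of polyunsaturated fatty acids, had values of 264, 351 and 469.7 and 261, 651 and 1271 (log2 difference 0.84, interval 0.23 to 1.45), with 1 FGR library below all controls. The lower one, ACACB, the acetyl-CoA carboxylase that controls entry of fatty acids into mitochondria, differed by -1.49 (interval -2.79 to -0.19) and is named after its values were seen. ACSL1, which activates fatty acids, had an interval of -0.25 to 0.72.

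The ribosomal protein genes moved with the 4 libraries. All 24 cytosolic ribosomal proteins tested had a higher mean in FGR cells (median 0.55), none at an unadjusted p below 0.05, and the median was -0.08 with the span slope and -0.13 without the 4 libraries. RPL19 illustrates this, with FFGR values of 13254, 134639, 57670 and 10477 and FC values of 10921, 83082, 8963 and 12580.2, in which FFGR replicates 2 and 3 and FC replicate 2 are the high ones. The median was 0.25 without MFGR replicate 1, 0.85 without FC replicate 2 and 0.20 without FFGR replicate 2. The mitochondrial respiratory chain behaved alike, with 22 of 25 above 0 and a median of 0.36, then 0.07 and 0.01. Of 24 interferon response genes 20 lay above 0 (median 0.35, then 0.21 and 0.22), with 0 at an unadjusted p below 0.05 and a median of 0.56 without MFGR replicate 3 and 0.02 without MFGR replicate 4. The median of the respiratory chain was 0.21 without MFGR replicate 1, 0.56 without FC replicate 2 and 0.15 without FFGR replicate 2.

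Genes of growth factor signalling were examined because the model restricts fetal growth. Of 14 genes for ligands, receptors and binding proteins of the insulin-like growth factors 5 lay above 0. Their median was -0.12, 0.03 with the span slope and 0.12 without the 4 libraries. In this list 2 had an unadjusted p below 0.05, IGFALS, described above, and HTRA1, a secreted protease that cleaves matrix and binding proteins. HTRA1 had values of 8898, 15003 and 29683 in controls and 13271, 27578 and 68188 in FGR cells (log2 difference 0.84, interval 0.09 to 1.59, 0.43 without the 4 libraries). Of 23 genes of insulin signalling 17 lay below 0 (median -0.29, with the span slope 0.07) and none had an unadjusted p below 0.05. Its median ran from -0.56 without FC replicate 2 to -0.08 without FFGR replicate 2 over the fits without 1 library. The kinase AKT1 differed by 0.14 (-0.53 to 0.81) and PIK3R1, the regulatory subunit of phosphoinositide 3-kinase, by -0.67 (-1.498 to 0.16). Without the 4 libraries AKT1 differed by -0.17 and PIK3R1 by -0.20. The 10 imprinted genes of fetal growth had a median of -0.13, and PEG10, the one with the smallest p, differed by -0.89 (-2.21 to 0.42). The difference of PEG10 was -0.43 with the span slope and -0.20 without the 4 libraries. Among 19 genes of adrenergic and cAMP signalling, which drives lipolysis, 15 lay below 0 (median -0.33, with the span slope -0.10), and PDE4B, a phosphodiesterase that degrades cAMP, differed by -1.80 (-3.68 to 0.08), with a value of 0 in FFGR replicate 2. The difference of PDE4B was -1.12 without that library, -1.07 with the span slope and -0.31 without the 4 libraries. Leaving out 1 library moved the median of the adrenergic list to -0.21 without MFGR replicate 1, -0.22 without FC replicate 1 and -0.15 without FFGR replicate 2.

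Genes of the responses to low oxygen, heat and cortisol gave no call either. Of 31 genes of the hypoxia response and glycolysis 26 lay below 0, with a median of -0.28 (-0.27 with the span slope and -0.22 without the 4 libraries). Leaving out 1 library moved the hypoxia median to -0.13 without FC replicate 1, -0.46 without FC replicate 4, -0.52 without FFGR replicate 1 and -0.18 without FFGR replicate 4. At an unadjusted p below 0.05 there were 1 lower, P4HA1, and 1 higher, ENO2, the neuronal enolase, at 2.56, 5.39 and 23.3 in controls and 2.78, 20.3 and 57.7 in FGR cells (1.31, interval 0.18 to 2.44). ENO2 passed the filter at 10 mostly through its FGR libraries, and it could not be tested without the 4 libraries. The 19 heat shock proteins and co-chaperones had a median of 0.06 (-0.02 under quantile normalization), and for 10 of them the interval lay within a 2-fold change. HSP90AB1, the constitutive cytosolic HSP90, had values of 22955, 29411 and 75642 and 27255, 40306 and 90424 (0.44, interval -0.21 to 1.09). HSP90B1, the HSP90 of the endoplasmic reticulum, differed by -0.59 (-1.18 to 0.00). Of 13 genes of the glucocorticoid receptor and its targets (median -0.24) ERRFI1, an inhibitor of the EGF receptor, was lower at an unadjusted p below 0.05 (-1.40, interval -2.79 to -0.01), while FKBP5, a sensitive target of the receptor, differed by 0.09 (-0.86 to 1.03). The median of the glucocorticoid list ran from -0.38 without MC replicate 2 to -0.07 without FC replicate 4. Of 19 genes of the unfolded protein and amino acid stress response 14 lay below 0 (median -0.13, -0.17 with the span slope and -0.17 without the 4 libraries, and from -0.27 without FC replicate 1 to -0.01 without MFGR replicate 4 over the fits without 1 library), and ATF4, its central transcription factor, differed by 0.20 (-0.40 to 0.81).

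Genes of developmental signals and regional identity also had no call. Of 23 Wnt genes (median -0.15, 0.14 without the 4 libraries) SFRP4 and WIF1, both secreted antagonists, were lower and DKK3 was higher at an unadjusted p below 0.05. DKK3, a secreted relative of the Dickkopf antagonists, had values of 85.6, 170.1 and 534 in controls and 176, 581 and 953 in FGR cells (log2 difference 1.22, interval 0.25 to 2.19), and WIF1 (-1.97, interval -3.57 to -0.37) is named after its values were seen. Of 36 genes of TGF-beta, BMP and activin signalling 26 lay below 0, with a median of -0.26, 0.00 with the span slope and 0.12 without the 4 libraries. This median was -0.13 without MFGR replicate 1, -0.15 without FC replicate 1 and -0.07 without FFGR replicate 2. In this list SMAD2, which carries the signal to the nucleus, had values of 709.7, 841 and 1063 and 938, 1029 and 1595 (log2 difference 0.40, interval 0.10 to 0.70). BMP6, a ligand, had values of 12.2, 84.3 and 132 and 67.6, 95.99 and 246 (0.85, interval 0.06 to 1.64), with the highest in FFGR. Among 40 tested HOX, TBX and other genes of positional identity the median was 0.12, the interval lay within a 2-fold change for 21, and HOXD10 had an unadjusted p below 0.05 (8.56, 21.3 and 57.5 against 24.1, 43.8 and 76.3, 0.79, interval 0.11 to 1.47). VCAM1, an adhesion protein of inflamed stroma, had values of 118, 173, 1062 and 1151 in FFGR against 157, 152, 69.6 and 140.5 in FC. Over both sexes its log2 difference was 1.74 (interval 0.51 to 2.98), with 1.81 in males and 1.68 in females. IL33, an alarmin, differed by -0.65 (interval -1.29 to -0.01).

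Genes of proliferation and of chromatin had no call. Of 28 cell cycle genes 25 lay below 0 (median -0.33, -0.25 with the span slope and -0.41 without the 4 libraries) and none had an unadjusted p below 0.05. The median was -0.18 without MC replicate 1 and -0.21 without MC replicate 2. TOP2A, a topoisomerase of dividing cells, ranged from 97.9 to 6838 in controls and from 81.9 to 3690.3 in FGR cells, so the libraries of 1 group differed far more than the groups (-1.42, interval -3.32 to 0.48). The difference of TOP2A was -0.71 with the span slope and -0.96 without the 4 libraries. GADD45G, a growth arrest gene, differed by 0.88 (interval 0.10 to 1.66) among 16 genes of growth arrest and p53 with a median of 0.11. The 36 enzymes that modify DNA and histones had a median of -0.22, 0.04 with the span slope, with 0 at an unadjusted p below 0.05 and 18 within a 2-fold change. Their median was -0.08 without MFGR replicate 1, -0.35 without FC replicate 2, -0.14 without FC replicate 3 and -0.09 without FFGR replicate 2. HDAC2 was among the best determined, with values of 2676, 3819 and 4366 and 2877, 3442 and 4407 and an interval of -0.36 to 0.27. Of 24 genes of antioxidant defence (median 0.11) GCLC, which starts glutathione synthesis, differed by -1.26 (interval -2.45 to -0.07) and by -0.75 without the 4 libraries.

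The remaining lists are given by their medians, which were -0.004 for 25 actin and contractile genes, -0.08 for 16 matrix proteases and inhibitors, -0.10 for 21 adipogenic transcription factors, -0.21 for 17 SPRED, Sprouty and ERK response genes, and -0.45 for 6 X-linked genes with a Y partner. The X-linked median was -0.07 with the span slope, -0.002 without the 4 libraries and -0.24 without MFGR replicate 1, -0.70 without FC replicate 2 and -0.21 without FFGR replicate 2. The SPRED, Sprouty and ERK median was -0.07 with the span slope and ran from -0.46 without FFGR replicate 1 to -0.06 without FC replicate 1. The inflammatory cytokines and NF-kappaB genes, to which VCAM1 and IL33 belong, had a median of 0.10, 0.37 without the 4 libraries and -0.07 without FC replicate 2 to 0.36 without FC replicate 1 over the fits without 1 library.

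**Figure D5:**
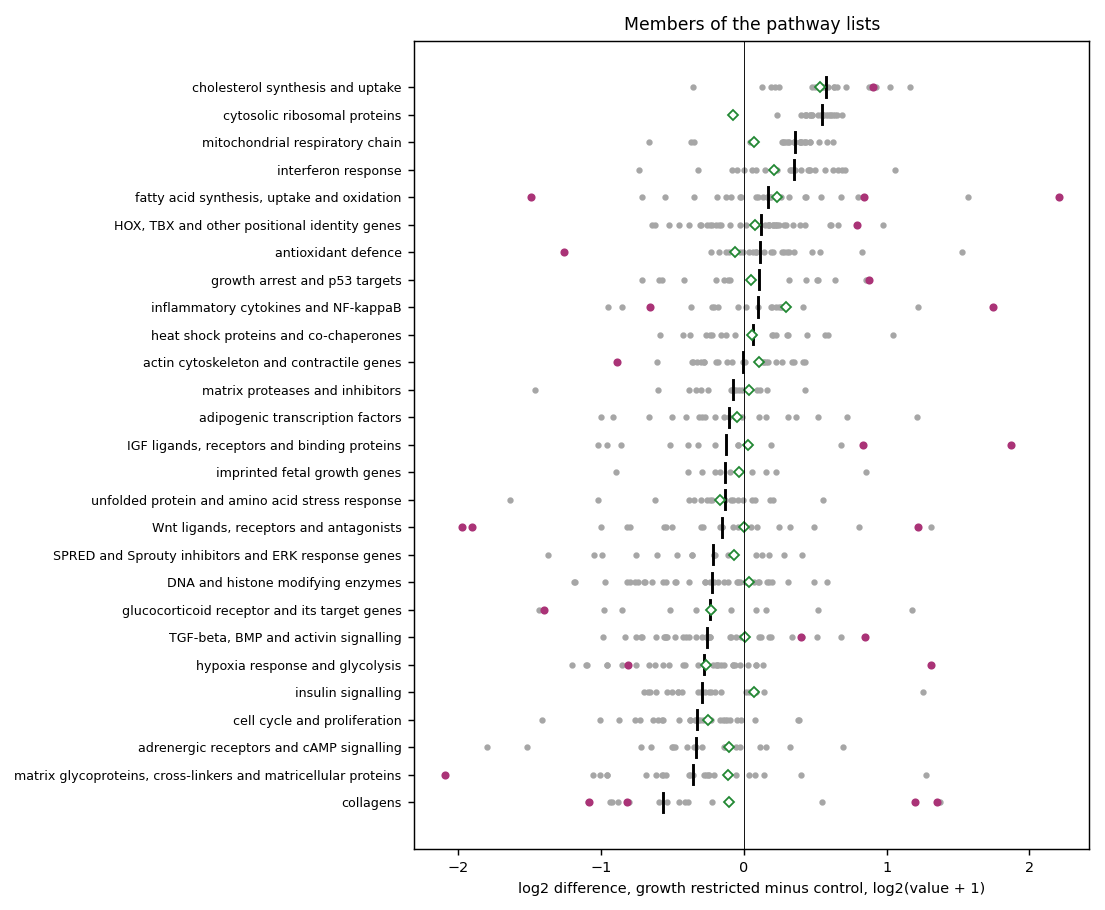
Each grey point is the log2 difference (FGR minus control) of 1 tested member of a pathway list, purple points have an unadjusted limma p below 0.05, the black bar is the list's median and the green diamond its median with the span slope as a covariate. Medians run from -0.56 for the collagens to 0.57 for cholesterol synthesis and uptake, and with the covariate those of the collagens and the ribosomal proteins lie near 0 while that of cholesterol synthesis stays at 0.54.

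The same comparison was made in differentiated cells and the difference between the stages tested. Among differentiated libraries 0 of 11455 genes (0%) were called, with 85 (0.742%) at an unadjusted p below 0.05, and the test of the stage difference over all 32 libraries gave 0 calls among 12181 genes (0%), 116 (0.952%) at an unadjusted p below 0.05 and a smallest adjusted p of 0.987 in limma. Libraries of both stages may come from the same fetuses, which neither labels nor methods state. The test takes all 32 as independent. Of the 10 higher genes above, 7 could be tested after differentiation and 5 had a difference above 0. Of the 10 lower genes 9 could be tested and 4 were below 0, and none of the 16 had an unadjusted p below 0.05. EEF1A2 differed by 0.59 after differentiation, CRABP2 by 0.37, SFRP4 by -0.36 and ELN by 0.24. RNF157 and IGFALS had the smallest p in the test of the stage difference. That test holds the preadipocyte values by which both had been chosen, so their place in it is no separate evidence. Neither gene passed the filter among the differentiated libraries. NEDD4L, a ubiquitin ligase of ion channels, differed by 0.56 in preadipocytes and -1.42 in differentiated cells. None of these passed the adjusted threshold.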

How the data were processed

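RNA of perirenal preadipocytes, 16 libraries, and of differentiated cells, 16 libraries, was sequenced in the study. Reads were checked with FastQC 0.11.9, as the submitters' processing notes give it, and assigned with Salmon to Ensembl transcripts of Oar_rambouillet_v1.0, and the authors normalized them with DESeq2 by median ratios. The deposited signal values per transcript and library are these normalized values, not raw counts, so limma (version 3.58.1, R 4.3.3) was used on log2(value + 1). The deposited fold changes, given as a score column, and the deposited p-values of the authors' own comparisons were not used.

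Transcripts were summed per gene, and genes of value 10 or more in 8 or more of the 16 libraries were fitted with treatment and sex. A call needed a Benjamini-Hochberg adjusted p below 0.05 and a fold change above 1.5. Since 8 of the 16 libraries suffice for the filter, a gene low in 1 group could enter through the other. The control medians of ADIPOQ, CD36, EEF1A2, ENO2 and FABP4 lie below 10. Fold changes on this scale understate those of low genes. Reads per library are approximate, from the value that 1 read is worth. Library properties were compared by an exact permutation test within sex. The scripts were tested on simulated data.

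The libraries and gene lists were chosen with earlier results of these data known. The genes named are those with the smallest p in each direction and comparison, the members of the lists with the smallest p, markers and genes the study names. Alternatives were other pseudocounts, filters and normalizations, array weights, the replicate number as a block, the span slope as a covariate, no sex covariate, all 32 libraries, and fits without single libraries or without the 4 that stand apart. The fit in differentiated cells, the sex and stage comparisons used for scale, the correlation of the sexes under other settings and the tests of further library properties were added after seeing the data.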

Additional observations from a re-analysis of the deposited data

Results flagged for a closer look

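Within each group of 8 libraries the highest and lowest value were compared with the rest by Dixon's ratio, which chance exceeds in about 1 in 20 groups. Of 266 groups of values 24 (9.02%) exceeded it, and 14 of these 24 are values of FC replicate 2, the control library whose span slope is below 0. The summed value was 17.6 M in FC replicate 2 (next 14.4) and 21.2 M in FFGR replicate 2 (next 15.4). FC replicate 2 also had the lowest number of genes above 0 among controls (13333) and the lowest span slope (-0.29).

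In FC replicate 2 the short or abundant transcripts ATP5F1A (13758), HSP90AB1 (75642) and RPS23 (9922) were the highest of the controls. In the same library DDX3X (1387), FKBP5 (105), LMO7 (1203), MMP2 (24521), PRKAR2B (194), SPRED1 (262), USP9X (315) and ZFX (91.7) were the lowest. The part of this library in each difference was not tested beyond the fits without it.

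IER3, an early response gene, was far above the other libraries of its group in FC replicate 1 (7614) and in FFGR replicate 1 (13934). LRRFIP1 was highest in FC replicate 1 (14756) and S100B lowest in FC replicate 3 (182). BMP6 was lowest in MC replicate 1 (12.2), PDIA6 highest in MC replicate 1 (10158) and THAP8 lowest in MC replicate 3 (3.01). In the FGR libraries CYP2D6 was lowest in FFGR replicate 1 (10.3) and TOX in FFGR replicate 2 (5.59).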

How the results depend on the processing

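The count of calls was 0 in each of the 6 comparisons under every alternative run, including each fit without 1 library (0 to 0 calls). The number of genes at an unadjusted p below 0.05 in the comparison of 8 with 8, 306 as reported, ran from 145 with a filter of 20 per M of the summed values in 3 libraries to 614 with the span slope as covariate, and from 157 without FC replicate 3 to 741 without FC replicate 2. Over all these alternatives and the fits without 1 library it ran from 47 to 626 for males, from 37 to 555 (without FC replicate 2) for females, from 9 to 249 for the sex difference, from 50 to 920 for the stage difference and from 173 to 920 (without FC replicate 2) for transcripts. The smallest adjusted p of any gene was 0.0657, for RNF157 with array weights, beside 0.805 as reported. The difference in span slope ran from -0.34 without FC replicate 2 to -0.09 without MFGR replicate 1, and was -0.27 with genes of a value of at least 100.

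With the replicate number as a block 0 genes were called and 331 had an unadjusted p below 0.05, and the block changed no call. The numbers were not taken to pair the libraries. Over 24 pairs of libraries with the same number the correlation of their deviations ran from -0.65 to 0.81 (median -0.16), and 5 of 16 libraries correlated best with one of their own number.

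The 20 genes with the smallest p kept their direction in each alternative that gave a value. Among all 129 named genes 28 changed sign in at least 1 alternative, as did 18 of 32 list medians, among them the ribosomal proteins, the insulin list and the chromatin enzymes. Of the list medians, those of the collagens, cholesterol synthesis, mitochondrial chain, cell cycle, hypoxia and interferon lists kept their sign in each. Under another scaling alone, the medians of the heat shock list (-0.02 under quantile normalization) and of the actin list (0.02 with median-ratio factors) lay on the other side of 0 there. With the filter of 20 per M of the summed values the median of the mature adipocyte markers was 1.92. That is the log2 difference of LPL alone, so it does not describe the list. The median of the stromal markers with this filter was -0.38, the difference of LUM. The spread between libraries limits what could be seen, as the intervals above give it, more for genes of low value.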
